A study of Mus musculus with 15 samples.

Results

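Methylation at 10 genes that serve the haploid phase of sperm formation was measured in the sperm of C57BL/6 males, labelled generation G1. The members are Prm1, Prm2, Prm3, Tnp1, Tnp2, Ldhc, Crem, Spata18, Gapdhs and Odf1, and every CpG listed inside a RefSeq gene span or within 2 kb of it was taken. Of the 204492 CpGs of the series 25 met this rule. They lie at 5 of the 10 genes: 8 at Prm1, 6 at Crem, 5 at Ldhc, 4 at Spata18 and 2 at Gapdhs. Prm2, Prm3, Tnp1, Tnp2 and Odf1 hold no listed CpG. Of all 49997 genes of the annotation, 20804 hold at least 1.

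DNA had been cut with MspI, which cleaves at CCGG, treated with bisulfite and sequenced, so that an unconverted cytosine reads as methylated. There were 7 libraries labelled Control and 8 labelled PR, the protein restricted diet. Both groups share strain, sex, tissue and generation. The labels give neither an age nor whether the mouse or a parent ate the diet, nor whether libraries come from separate mice, so each p-value describes library-to-library spread only, which may be technical.

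In round spermatids, the haploid cells left by meiosis, transcription is driven in part by the activator form of CREM. Histones are then replaced by the transition proteins TNP1 and TNP2 and finally by protamines, small arginine-rich proteins that pack the DNA of the sperm head. Prm1, Prm2, Prm3 and Tnp2 form a gene cluster, while Tnp1 lies on another chromosome. Haploid cells also use germ-cell enzymes of glycolysis, among them LDHC, a lactate dehydrogenase, and GAPDHS, a glyceraldehyde-3-phosphate dehydrogenase. They build a tail that contains ODF1, a protein of the outer dense fibres.

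Total counts summed over listed CpGs lay between 7846118 and 11841657 in control libraries, and between 6650912 and 10712016 in the protein restricted ones. Median coverage per CpG was 26 to 42 reads. No listed position has fewer than 11 methylated reads in any library, so CpGs with little methylation are mostly absent from the list. The paternal imprint genes H19, Meg3 and Rasgrf1, whose control regions are methylated in sperm, had 16 listed CpGs in or within 2 kb of their spans. Their mean was between 96.6% and 99.2% in each library, around the median of 98.2% over all listed CpGs. Low values are mostly absent from the list, and these CpGs were not placed in the control regions, so they do not check the tissue. The opposite check was not informative either. CpGs of maternally methylated imprints that are unmethylated in sperm would not be listed. The 44 CpGs found in and around 7 of 8 such genes had a mean between 81.3% and 88.4% in each library. The genes differed widely. Library means ran from 57.3% to 67.3% at Peg3, from 72.6% to 92.1% at Peg10 and from 79.0% to 94.7% at Snrpn. At Mest, Plagl1, Nnat and Grb10 the lowest library mean was 94.6%, at Grb10.

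No listed CpG lay in the promoter windows given for members, and Crem and Odf1 had no window. RefSeq promoter windows (GRCm38.p6, 250 bases before to 50 after the start) were given for 8 members in 10 windows, and none of the 10 holds a listed CpG. Among all 32851 windows 0.980% hold one, and among windows with a CCGG 1.46%. The windows of 3 members contain CCGG, and 52.8% of all windows do. The 250 bases upstream of 3 members are shown because they span the range from CpG-free to CpG-dense, with every CG in capitals and each read 5′ to 3′ on the gene's own strand. Prm1 is at chr16:10796824-10797073 on the minus strand, Tnp1 at chr1:73015900-73016149 on the minus strand and Spata18 at chr5:73651130-73651379 on the plus strand.
Prm1: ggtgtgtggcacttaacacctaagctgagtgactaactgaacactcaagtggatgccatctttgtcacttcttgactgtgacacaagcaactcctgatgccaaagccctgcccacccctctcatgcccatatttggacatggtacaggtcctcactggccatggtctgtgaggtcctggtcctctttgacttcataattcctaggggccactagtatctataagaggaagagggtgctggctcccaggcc
Tnp1: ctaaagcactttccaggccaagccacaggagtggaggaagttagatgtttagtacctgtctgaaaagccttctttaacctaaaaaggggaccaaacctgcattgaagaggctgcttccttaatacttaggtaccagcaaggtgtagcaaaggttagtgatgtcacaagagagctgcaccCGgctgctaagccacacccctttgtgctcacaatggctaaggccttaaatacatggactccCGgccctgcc
Spata18: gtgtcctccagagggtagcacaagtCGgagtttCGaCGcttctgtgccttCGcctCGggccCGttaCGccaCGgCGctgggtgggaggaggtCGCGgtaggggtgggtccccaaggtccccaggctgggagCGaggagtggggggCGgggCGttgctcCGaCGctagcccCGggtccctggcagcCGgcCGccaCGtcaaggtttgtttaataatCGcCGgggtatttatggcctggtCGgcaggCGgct
The Prm1 stretch has no CG. The whole Prm1 window has 1 CpG, and 5.43% of all windows have fewer. The Tnp1 window has 6 CpGs and 3 CCGG sites, a number of sites that 21.1% of windows reach. The Spata18 window has 30 CpGs and 5 CCGG sites, more CpGs than 88.3% of windows.

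The half-site of the CREM response element, searched as TGACG on both strands, occurs in 3 of the 10 windows, 1 each of Ldhc, Spata18 and Gapdhs, against 20.8% of all windows. The full element TGACGTCA, which contains the half-site, is in none of the 10 windows and in 1.79% of all. A match here is a run of letters and was not tied to binding. Only these strings were searched, so a window without a match may still hold another form of the element.

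The cluster from Tnp2 to Prm1 covers 8.9 kb of mm10 (chr16:10787935-10796823), and with 2 kb on each side it holds 8 listed CpGs, all of them inside Prm1. The nearest listed CpGs lie 11048 bases before the first base of Tnp2 and 12348 bases after the last base of Prm1. Prm2 is 4544, Prm3 5735 and Tnp2 7994 bases from the Prm1 CpGs, which are the nearest listed on that side. The methylation of the cluster is therefore that of a short stretch of Prm1, the gene of protamine 1.

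The Prm1 CpGs lie between positions 10796649 and 10796718, 105 to 174 bases downstream of the gene start on the minus strand, in a gene of 492 bases. Exon and intron positions were not analysed here. The 8 CpGs lie within 69 bases, and all 7 spacings between neighbours are divisible by 3, the length of a codon. Of 356 runs of 8 consecutive listed CpGs no longer than this, 13 (3.65%) have that property, the Prm1 run included. Runs can overlap, and the property was described, not tested. Most arginine codons begin with CG, but the sequence and reading frame under these CpGs were not read. Coverage was equal at all 8 CpGs in 13 of 15 libraries and differed by 1 read in the other 2, so the 8 values of a library come largely from the same reads and are not independent.

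Prm1 was almost fully methylated in both diets. Of 2132 calls over 8 CpGs and 15 libraries 32 were unmethylated, 18 of 879 in control and 14 of 1253 in protein restricted sperm. The mean over the 8 CpGs was lowest at 94.3%, at a median of 98.6% and highest at 100% in the 7 control libraries. In the 8 protein restricted libraries it ran from 97.1% over 98.8% to 100%. The groups overlapped, and 2 libraries of each diet were at 100% at all 8 CpGs. The means were 98.4% ± 1.96 (SD, n = 7) and 98.8% ± 0.990 (SD, n = 8), 0.467 points apart (two-sided exact permutation test, p = 0.625; 95% interval from -1.05 to 2.18).

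Control replicate 4 held 11 of the 18 unmethylated calls of the control libraries and was the lowest of all libraries. It was also the library with the highest total count, and the part of depth in its value was not tested. Leaving it out turned the difference to -0.216 points (exact permutation p = 0.680). Shallow coverage limits the control values from the other side. Control replicate 2 had 11 reads at every Prm1 CpG and control replicates 6 and 7 had 11 or 12, so with at least 11 methylated reads a listed CpG there can only be at 91.7% or 100%. Without these 3 libraries, an alternative chosen after the values were seen, the difference was 1.17 points.

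**Figure D1:**
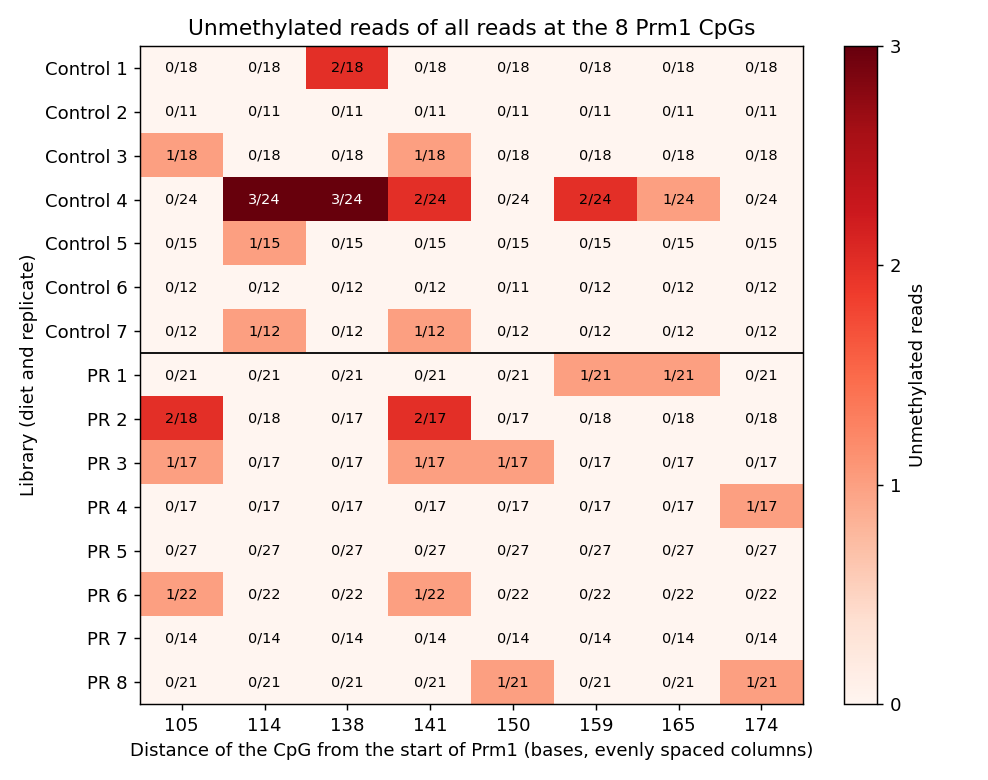
Unmethylated reads over all reads at each Prm1 CpG (columns, distance from the gene start in bases) in each library (rows, control above the line, PR below), with darker red for more unmethylated reads. The counts lie between 0 and 3, control replicate 4 carries 11 of the 32, and no PR library has one at 114 or 138 bases.

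Taken singly, 2 Prm1 CpGs had an unadjusted p under 0.05. At position 10796685, 138 bases into the gene, all 8 protein restricted libraries were at 100%. Control replicates 1 and 4 were at 88.9% and 87.5%, and the other 5 control libraries at 100%. The means were 96.6% ± 5.77 (SD, n = 7) and 100%, from 5 unmethylated of 110 reads and 0 of 156. The quasi-binomial test gave p = 0.0103 unadjusted and 1 after Benjamini-Hochberg adjustment over all CpGs, and the exact permutation test p = 0.200. With only control replicates 1 and 4 below 100%, that is the smallest exact permutation p these values can give. The permutation test could therefore not reach 0.05 at this CpG.

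Position 10796709, 114 bases into the gene, had the same pattern in partly other libraries. Control replicates 4, 5 and 7 were at 87.5%, 93.3% and 91.7%, and every other library of either diet was at 100%. The means were 96.1% ± 5.20 (SD, n = 7) and 100%, again from 5 unmethylated of 110 reads and 0 of 157. The quasi-binomial p was 0.0102 unadjusted and 1 adjusted, and the exact permutation p was 0.0769. Again this is the smallest exact permutation p possible, with only control replicates 4, 5 and 7 below 100%. Control replicate 4 gave 3 of the 5 unmethylated reads at each of these positions. Without it the differences fell from 3.37 to 1.85 points and from 3.93 to 2.50 points, with unadjusted quasi-binomial p of 0.0638 and 0.0633. A count of 0 in 14 to 27 reads allows an unmethylated share of up to 21.4% in the shallowest and 11.1% in the deepest protein restricted library, for counting error only.

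The other 6 Prm1 CpGs differed in both directions. Positions 10796649 and 10796673 were at 100% in all control libraries and at 98.7% ± 2.48 (SD, n = 8) in protein restricted sperm, each with 2 unmethylated reads in that diet. Position 10796718 was at 99.2% ± 2.1 (SD, n = 7) and 97.3% ± 4.15 (SD, n = 8), and position 10796682 at 96.8% ± 4.07 (SD, n = 7) and 97.2% ± 4.34 (SD, n = 8). These last 2 positions lie 36 bases apart and were below 100% together in 4 libraries, control replicate 3 and protein restricted replicates 2, 3 and 6. Position 10796664 was at 98.8% ± 3.15 (SD, n = 7) and 99.4% ± 1.68 (SD, n = 8), and position 10796658 at 99.4% in both diets. Both were below 100% in control replicate 4 and protein restricted replicate 1 only. The unadjusted quasi-binomial p of these 6 CpGs ran from 0.168 to 0.805.

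Over all members, 3 of 25 CpGs had an unadjusted quasi-binomial p under 0.05, where 3.79% of all listed CpGs did, and none passed after adjustment, where 0% of all listed CpGs passed. Of the 3, 2 are the Prm1 CpGs that share reads, and the third is in Spata18. They are also the 3 member CpGs at 100% in every protein restricted library and below it in a control library, a pattern of 2.81% of all listed CpGs. The opposite pattern, at 100% in every control library only, was equally frequent among the members with 3 CpGs, 2 in Prm1 and 1 in Crem, and is seen at 3.82% of all. limma called 0 of the 25 on percentages and 0 on logit values, where it called 0% of all listed CpGs. At an unadjusted p under 0.05 it had 3 on percentages and 5 on logit values, against 4.56% of all on either scale. The 3 are 10796709 in Prm1, 73676717 in Spata18 and 46878824 in Ldhc. The 5 are the 2 Prm1 CpGs and 3 of Ldhc, of which 46876796 and 46876815 lie 19 bases apart. With a pseudocount of 1, the logit value of a CpG at 100% rises with its number of reads. At 10796709 there were 157 reads in the 8 protein restricted and 110 in the 7 control libraries, and at 46876815 there were 178 and 121. The part of depth in the logit results was not tested. By the exact permutation test 2 of 25 had a p under 0.05, in Spata18 and Ldhc, against 3.73% of all. Of the 25 CpGs 14 had a higher and 10 a lower mean in protein restricted sperm, with a median difference of 0.12 points, against 0 over all listed CpGs.

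**Figure D2:**
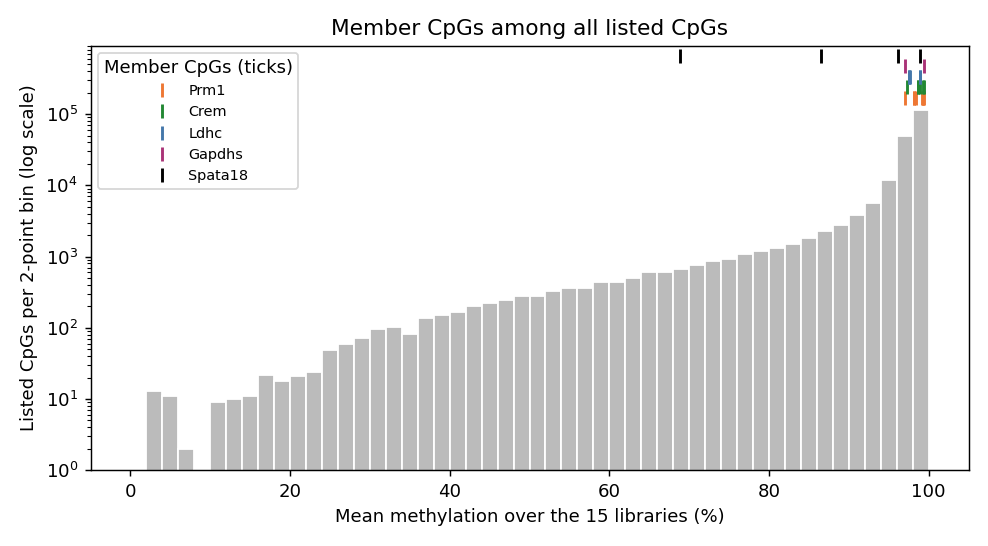
Mean methylation over the 15 libraries (x axis, percent) of all 204492 listed CpGs (grey bars, number per bin on a log scale) with the 25 member CpGs as coloured ticks. All members lie above 96% except the 2 CpGs upstream of Spata18, at 68.9% and 86.5%.

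The members' levels were close to those of the whole list. The median of the 25 means was 98.6%, against 98.2% over all listed CpGs, and 92.0% of the members were at 90% or more, against 89.7%. Their median coverage was lower, 22.3 reads against 32.0.

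For whole genes, 0 of 5 members passed the quasi-binomial test on summed counts, where 0% of 20804 genes passed, and 0 had an unadjusted p under 0.05, where 3.06% of genes did. limma also called 0 of 5 on percentages and on logit values, where 0% of genes passed. It had 0 of 5 at an unadjusted p under 0.05, where 4.72% of genes on percentages and 4.64% on logit values did. The exact permutation test on gene means gave 1 member under 0.05, Ldhc, against 4.75% of all genes, and the adjusted p over all genes was 1 for each member. Mean differences, protein restricted minus control, ran from -0.711 to 1.31 points over the 5 members with 3 higher and 2 lower, and the median over all genes was -0.0020.

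**Figure D3:**
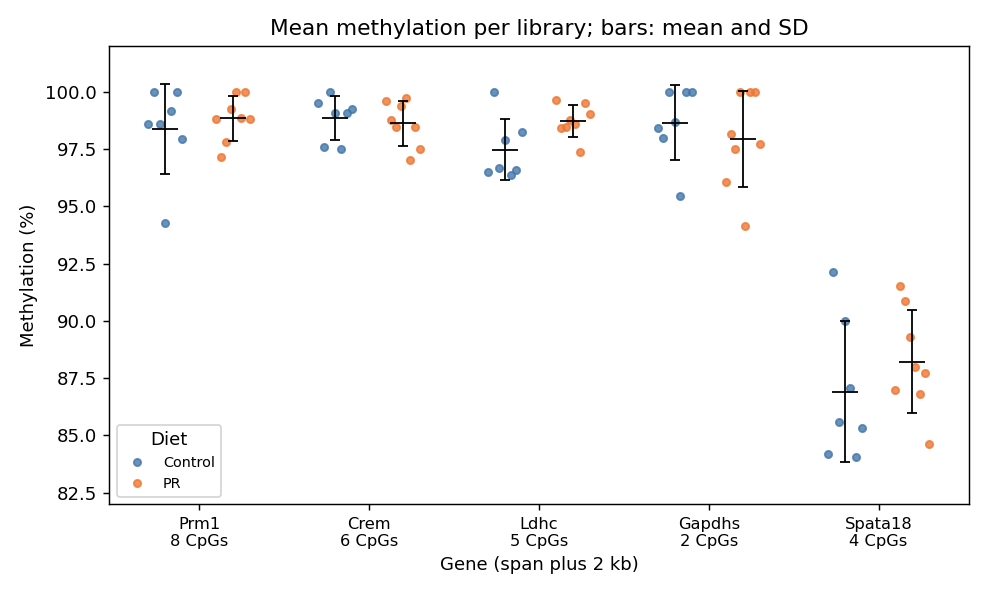
Mean methylation (y axis, percent) of the listed CpGs of each member gene, 1 point per library, with bars for the mean and SD of each diet. The diets overlap at every gene, and Spata18 sits lowest, between 84.1% and 92.1%.

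Crem, the gene of the cAMP-responsive transcription factor of spermatids, lies on chromosome 18 (3266354 to 3337773) and has 6 listed CpGs, all inside the gene. Gene means were 97.5%, 99.1% and 100% (lowest, median, highest) in control and 97.0%, 98.6% and 99.7% in protein restricted libraries. These ranges nearly coincide. The means were 98.9% ± 0.948 (SD, n = 7) and 98.6% ± 0.976 (SD, n = 8), a difference of -0.239 points (exact permutation p = 0.631, 95% interval -1.33 to 0.848). Leaving out protein restricted replicate 6 gave -0.012 points, leaving out control replicate 5 gave -0.461, and requiring 20 reads in every library gave 0.139. The CpG at 3277139 stood apart among the 6 by its dispersion of 1.90, where counting noise gives 1. Control libraries there ranged from 87.5% to 100% and protein restricted ones from 94.1% to 100%, and 14 of 579 reads were unmethylated. The CpGs at 3312703 and 3312778 had 8 of 765 and 11 of 768 reads unmethylated. The 3 CpGs at 3320057, 3320158 and 3320162 had equal coverage in every library, and 5, 2 and 2 of 334 reads were unmethylated. The unadjusted quasi-binomial p of the 6 ran from 0.136 to 0.927.

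Ldhc encodes the lactate dehydrogenase of the sperm tail and lies on chromosome 7 (46861263 to 46878147, plus strand). Of its 5 CpGs 3 lie inside the gene, 1472, 1351 and 1332 bases before its last base, and 2 beyond its end, at 677 and 1522 bases. None is near the start. The gene mean was 96.4%, 96.7% and 100% (lowest, median, highest) in control and 97.4%, 98.7% and 99.6% in protein restricted libraries. Of the 8 protein restricted libraries 7 lay above the control mean, but the highest library of all was control replicate 2. The means were 97.5% ± 1.34 (SD, n = 7) and 98.7% ± 0.704 (SD, n = 8), a difference of 1.26 points (exact permutation p = 0.0407 unadjusted, 95% interval 0.069 to 2.37). The quasi-binomial test on summed counts gave p = 0.196 unadjusted and 1 adjusted, and with counts summed the difference was 0.726 points. With at least 20 reads in every library only the 2 CpGs past the end were left, and the difference was 0.448 points. Leaving out 1 library at a time, the exact permutation p lay between 0.00300 without control replicate 2 and 0.0806 without control replicate 5, and it was above 0.05 in 9 of 15 cases. Control replicate 2 had 11 reads at each of the 3 CpGs inside the gene, where only 100% can be listed.

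The difference at Ldhc was uneven over its CpGs. At 46878824, past the end, control libraries were at 91.2%, 96.8% and 100% (lowest, median, highest) and protein restricted libraries at 97.3%, 98.1% and 100%. The means there were 96.3% ± 2.68 (SD, n = 7) and 98.6% ± 1.25 (SD, n = 8), from 11 unmethylated of 306 and 6 of 384 reads (exact permutation p = 0.0357, quasi-binomial p = 0.111, adjusted 1). Leaving out 1 library at a time, its exact permutation p was above 0.05 in 8 of 15 cases. Without control replicate 7 the difference fell from 2.28 to 1.43 points, with an exact permutation p of 0.0882. At 46879669, 845 bases further on, the direction was opposite, with 99.7% ± 0.756 (SD, n = 7) and 98.3% ± 2.44 (SD, n = 8). Control means at 46876796 and 46876815 were 96.2% ± 3.87 and 96.1% ± 4.67 (SD, n = 7), against 98.7% ± 2.54 and 99.1% ± 1.63 (SD, n = 8) under restriction, each with 5 unmethylated of 121 and 2 of 178 reads. The CpG at 46876675 was at 99.0% ± 2.70 (SD, n = 7) and 98.9% ± 2.01 (SD, n = 8).

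**Figure D4:**
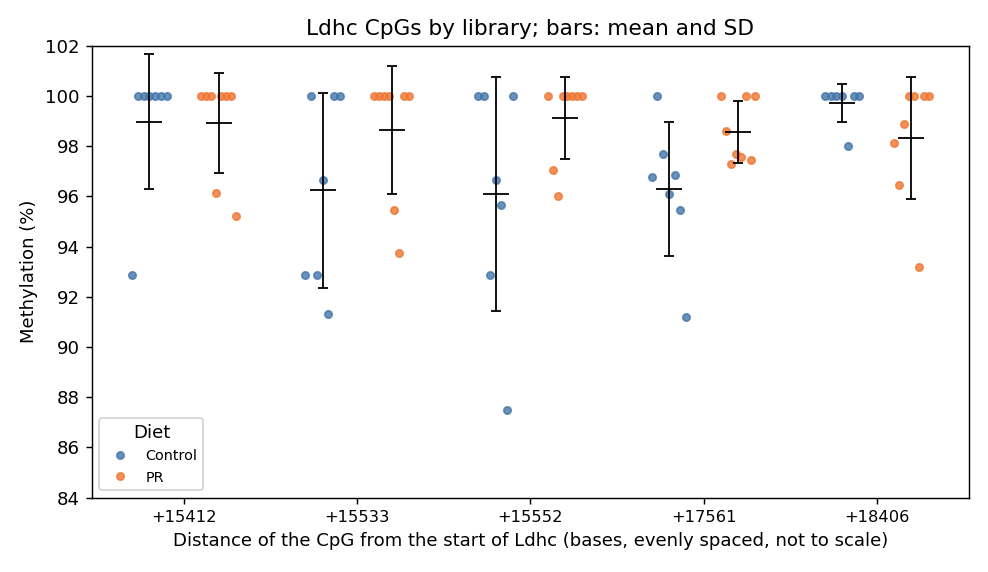
Methylation (y axis, percent) of the 5 Ldhc CpGs by distance from the gene start (x axis, bases, evenly spaced), 1 point per library, with bars for the mean and SD of each diet. The first 3 CpGs are in the gene and the last 2 past its end, and the last runs opposite to the one before it.

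Gapdhs encodes the glyceraldehyde-3-phosphate dehydrogenase of the sperm tail (chromosome 7, 30729779 to 30744791, minus strand). Its 2 listed CpGs, at 30727857 and 30727896, lie beyond the end of the gene and inside the span of Tmem147, so they speak for the flank only. Their mean was 95.5%, 98.7% and 100% (lowest, median, highest) in control and 94.1%, 97.9% and 100% in protein restricted libraries, and both diets reached 100%. The means were 98.7% ± 1.64 (SD, n = 7) and 97.9% ± 2.11 (SD, n = 8), a difference of -0.711 points (exact permutation p = 0.472, 95% interval -2.84 to 1.42). Leaving out control replicate 5 gave -1.24 points, and leaving out protein restricted replicate 5 gave -0.164. The unadjusted quasi-binomial p was 0.429 at the first CpG and 0.536 at the second.

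Spata18, which encodes a protein of mitochondrial quality control, was the only 1 of the 5 members with a CpG whose mean over the 15 libraries was below 90%. It lies on chromosome 5 (73651380 to 73679584, plus strand). A pair of CpGs lies 1672 and 1602 bases upstream of the start, and another pair 25337 and 25392 bases downstream of it, near the end of the gene. The CpG-dense window at the start has no listed CpG.

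At 73649778, 1602 bases upstream, control libraries were at 60.0%, 64.4% and 85.7% (lowest, median, highest) and protein restricted libraries at 61.9%, 68.6% and 78.4%. Control replicate 2 was the highest. The means were 68.7% ± 8.93 (SD, n = 7) and 69.0% ± 5.72 (SD, n = 8), with mean coverage of 35.4 reads (quasi-binomial p = 0.671; by exact permutation 0.939). Only 3.03% of listed CpGs had a lower mean over the libraries. At 73649708, 70 bases further from the gene, control averaged 85.1% ± 3.14 (SD, n = 7) and the restricted diet 87.7% ± 2.80 (SD, n = 8), with an exact permutation p of 0.121. The dispersion of both CpGs was 1, so the spread between libraries was no wider than counting noise.

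Near the end of the gene, position 73676717 was at 100% in all 8 protein restricted libraries. Control replicates 1 and 5 were at 100% too, and the other 5 control libraries ran from 95.2% to 98.3%, each with 1 unmethylated read. The control mean was 97.7% ± 1.84 (SD, n = 7), from 5 unmethylated of 255 reads against 0 of 258 in protein restricted sperm. The exact permutation p was 0.00699 and the quasi-binomial p 0.0199, both unadjusted, and both adjusted p over all CpGs were 1. Leaving out 1 library at a time, which was not planned for this CpG, gave differences of 1.94 to 2.73 points. Their sign was fixed, because all protein restricted libraries were at 100% and 5 control libraries below it. Without control replicates 2, 6 and 7, the alternative chosen for their coverage at Prm1, the difference was 1.22 points. The unadjusted p then rose to 0.0851 (quasi-binomial) and 0.0909 (exact permutation). At 73676772, 55 bases on and read at nearly the same coverage, the means were 96.1% ± 3.41 (SD, n = 7) and 96.2% ± 3.18 (SD, n = 8), with an exact permutation p of 0.970. Averaged over the 4 CpGs, Spata18 stood at 86.9% ± 3.07 (SD, n = 7) under the control diet and at 88.2% ± 2.26 (SD, n = 8) under restriction (difference 1.31 points, 0.327 with counts summed, exact permutation p = 0.351, 95% interval -1.74 to 4.26). Without control replicate 2 the difference was 2.19 points and without control replicate 6 it was 0.839.

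**Figure D5:**
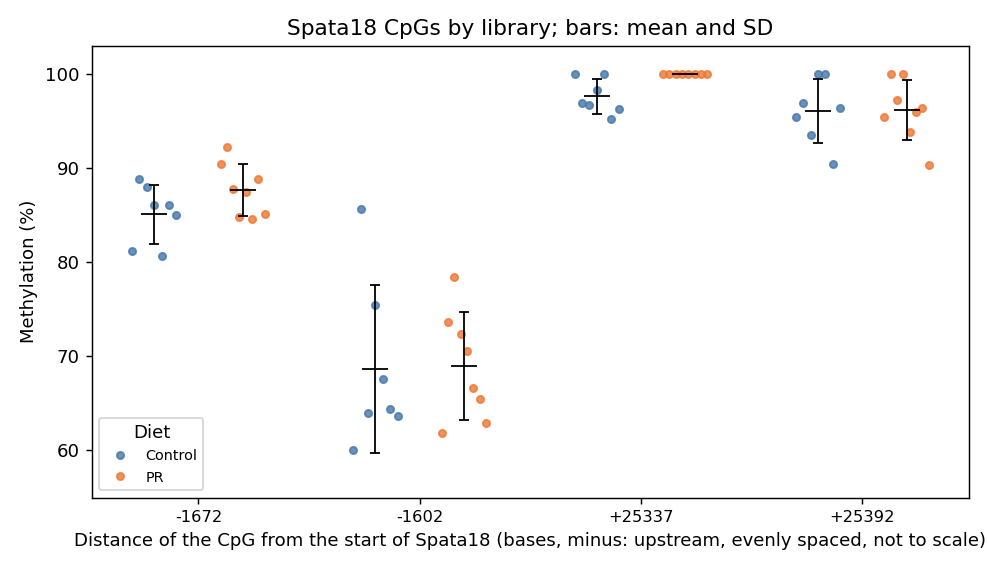
Methylation (y axis, percent) of the 4 Spata18 CpGs by distance from the gene start (x axis, bases, evenly spaced), 1 point per library, with bars for the mean and SD of each diet. The 2 upstream CpGs range from 60.0% to 92.3% and the 2 downstream from 90.3% to 100%, with all PR libraries at 100% at 25337 bases.

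The members with no listed CpG are described by distance. For Tnp1, the transition protein gene of chromosome 1 (73015074 to 73015899), the nearest listed CpGs are 10402 bases before and 3247 after it. For Odf1, on chromosome 15 (38219203 to 38226735), they are 76962 bases before and 12234 after. Prm2, Prm3 and Tnp2 have none closer than those of Prm1 on one side, and on the other they are 14490, 13621 and 11048 bases away.

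Of 57 other genes of spermatid chromatin, haploid transcription, tail, acrosome and sperm metabolism, 36 held listed CpGs, 261 in all, and 34 of the 36 had a mean of at least 90%. None passed in either direction by the quasi-binomial test or by limma on percentages or logit values, and 1 had an unadjusted quasi-binomial p under 0.05, where 3.06% of all genes did. By the exact permutation test 3 of the 36 had an unadjusted p under 0.05, against 4.75% of all genes: Odf2 (p = 0.00404), Zpbp (p = 0.00482) and Adam3 (p = 0.0427), the last named after its value was seen. The mean was higher in protein restricted sperm for 17 and lower for 19, with a median difference of -0.038 points. Lower without passing were Zpbp, which encodes an acrosomal zona pellucida binding protein, at 98.8% ± 0.540 and 96.5% ± 1.68 (unadjusted quasi-binomial p = 0.00540), and Oaz3, an antizyme of haploid germ cells, at 99.5% ± 1.30 and 96.6% ± 5.21 (unadjusted p = 0.0524). Higher without passing were Odf2, an outer dense fibre gene, at 98.1% ± 0.412 and 98.6% ± 0.235 (unadjusted p = 0.0860), and Akap4, a fibrous sheath gene, at 98.6% ± 2.1 and 99.7% ± 0.884 (unadjusted p = 0.121). Each pair gives control (SD over 7 libraries) and protein restricted (SD over 8). Their quasi-binomial p adjusted over all genes was 1.

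Across the 15 libraries, the gene means most like that of Prm1 among 13661 genes with at least 3 listed CpGs were those of Gm17709 (Pearson r = 0.880), Tbx5 (r = 0.837) and Gm34471 (r = 0.830). These are the top of a long list of correlations in values close to 100%, whose points share library and depth.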

How the data were processed

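The deposited files hold, per CpG, raw counts of methylated reads and of all reads, per the file headers. The authors named Bismark 0.7.12, Bowtie2 2.1.0 and build mm10, per the submitters' processing notes, without roles. Trimming, filters and strand merging are not recorded there. All 691 listed positions that fall in RefSeq promoter windows are the C of a forward-strand CG. Members were matched by symbol to a RefSeq table of GRCm38.p6, and the members and lists were chosen with earlier results of these data known.

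Percent is methylated over total counts. Each CpG, and the summed counts of each gene with 2 kb flanks, was fitted by quasi-binomial logistic regression on diet. The F test had 13 residual degrees of freedom and a dispersion of at least 1. Adjustment was by Benjamini-Hochberg over all CpGs or genes, with a threshold of 0.05. The test was run on simulated counts that held counting noise only, without further spread between libraries or the listing limit. The falls put in were larger than any member difference, so power for differences of the size seen here was not tested. Gene means and single CpGs were also permuted exactly (two-sided, all 6435 assignments of diet, smallest p 0.000155), and 95% intervals invert that test. The coverage minimum of 10 reads removed nothing. limma 3.58.1 on percentages and on logit values (pseudocount 1), 20 reads per library, other flanks and leaving out libraries were alternatives. No 2 of the 105 pairs of libraries had identical counts. All CpGs of a member are named, and of the other haploid genes the 2 of smallest p in each direction, with the 3 genes most correlated with Prm1. Reads carried no molecular identifiers, so limits cover counting error only. numpy 2.4.6 and scipy 1.17.1 were used.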

Additional observations from a re-analysis of the deposited data

Results flagged for a closer look

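Values of 1 diet were searched for a lone extreme library, one that Dixon's criterion sets apart from the rest, in 62 sets. It was found in 12, where chance gives about 1 in 20. That rate does not hold here, since in 10 of the 12 all other libraries of the diet were at 100% and any lower value stands out. The mean of Prm1 was 94.3% in control replicate 4, against 97.9% to 100% in the other control libraries. Total counts of control replicate 4 were 11841657, against 7846118 to 9333437.

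With all others of the diet at 100%, control replicate 4 was at 95.8% at Prm1 10796658 and at 91.7% at Prm1 10796664, and protein restricted replicate 1 was at 95.2% at both. At Prm1 10796718 control replicate 3 was at 94.4%. At Crem 3320162 control replicate 2 was at 94.4% and protein restricted replicate 3 at 96.8%. Control replicate 5 was at 97.7% at Gapdhs 30727857 and at 98.0% at Ldhc 46879669, and control replicate 1 was at 92.9% at Ldhc 46876675.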

How the results depend on the processing

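No member CpG, member gene or other haploid gene was called after adjustment under any alternative run. With 20 reads in every library 11 of the 25 member CpGs and none at Prm1 were left, the Crem difference was 0.139 points in place of -0.239 and the Ldhc difference 0.448 in place of 1.26. Leaving out 1 library moved the mean of Prm1, and so of the cluster, between -0.216 and 0.739 points, the CpG at 10796664 between -0.595 and 1.19 and the CpG at 10796682 between -0.459 and 1.68. The values below 0 came without control replicate 4, and at 10796682 also without control replicate 7. Of 263 alternative values of the 15 differences other than 0, 257 kept their sign and 6 changed it, the Prm1 mean counted also as the cluster. That count does not measure stability. At 10796649, 10796673, 10796685, 10796709 and Spata18 73676717, 1 diet was at 100% in every library, so leaving out 1 library could not change the sign. The leave-outs of Spata18 73676717 and Ldhc 46878824 were not planned. The CpG at 10796658, at a difference of 0, moved between -0.595 and 0.595. Ldhc passed 0.05 in the unadjusted exact permutation test. The causes were not tested. An alternative chosen after the values were seen left out control replicates 2, 6 and 7, which had 11 or 12 reads at Prm1. It gave 5.90 points at 10796685 and 4.79 at 10796709. These libraries had 21 to 33 reads at Spata18 73676717 and 34 to 45 at Ldhc 46878824, where it gave 1.22 and 1.72 points. The adjusted quasi-binomial p was 0.995 at each of these CpGs. No paired analysis was possible because the replicate numbers follow accession order and the 15 title numbers are all different. At Prm1, 11 to 27 reads a library limit what a single CpG can show.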
